A study of Mus musculus with 3 samples.

Results

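The Pax genes encode transcription factors that bind DNA through a paired domain, and they are known above all as regulators of organ formation in the embryo. The 8 mouse members other than Pax6 are described here: Pax1, Pax2, Pax3, Pax4, Pax5, Pax7, Pax8 and Pax9. They were taken by name from the 55681 non-control probes of the array, with every probe of a gene included, also the dim ones. This gave 13 probes for the 8 genes: 3 for Pax2, 2 each for Pax3, Pax5 and Pax9, and 1 each for Pax1, Pax4, Pax7 and Pax8. The family was picked with the ratios between the channels already known. The ratios of its members are therefore a description. Where a fit over all genes or probes called a member, this is stated beside the share called among all of them, and nothing is read from it.

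RNA came from the dorsal cortex of untreated mouse pups killed at postnatal day 4. On each of 3 two-colour arrays, a wild-type pup labelled with Cy3 was set against a Brpf1-deficient pup labelled with Cy5, as numbered pairs 1 to 3. No dye was swapped, so a dye effect on a probe cannot be told apart from genotype. The labels name neither the deleted allele, nor a Cre driver, nor the strain, and do not say whether the pups were littermates, so the spread over the arrays may be in part technical. In bulk tissue, fewer cells of a type and less RNA per cell cannot be told apart.

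By vertebrate subfamily, Pax1 and Pax9 form 1 group, known for the vertebral column, the pharyngeal pouches and, in the case of Pax9, the teeth. Pax2, Pax5 and Pax8 form another, with roles at the boundary of midbrain and hindbrain, in kidney, in B cells and in thyroid. Pax3 and Pax7 act in skeletal muscle precursors, dorsal neural tube and neural crest. Pax4 acts in the endocrine pancreas and is related to Pax6, the member that cortical progenitors are known to use.

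Pax1 was the 1 member that stood apart, while the other 7 gave ratios near 0 or no signal well above background. RefSeq gives a promoter window for 6 of the 8 genes. Those of Pax1 and of its nearest relative Pax9 are shown because the pair share a subfamily and gave different results. Each is the 250 bases before the annotated start, 5′ to 3′ on the plus strand of GRCm38.p6, with every CG pair in capitals. Pax1 is at chr2:147364744-147364993 and Pax9 at chr12:56695221-56695470.
Pax1: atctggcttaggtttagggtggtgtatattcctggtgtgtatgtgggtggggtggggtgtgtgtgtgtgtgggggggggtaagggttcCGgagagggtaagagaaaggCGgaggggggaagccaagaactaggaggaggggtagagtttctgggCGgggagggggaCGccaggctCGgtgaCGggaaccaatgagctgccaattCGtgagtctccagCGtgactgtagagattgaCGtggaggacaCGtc
Pax9: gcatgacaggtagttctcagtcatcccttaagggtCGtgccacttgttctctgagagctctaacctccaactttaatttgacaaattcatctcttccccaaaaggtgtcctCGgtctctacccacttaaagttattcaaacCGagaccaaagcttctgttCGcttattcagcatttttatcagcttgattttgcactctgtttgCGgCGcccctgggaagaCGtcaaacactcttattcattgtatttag

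The printed stretch of Pax1 holds 10 CG pairs and that of Pax9 holds 7. Over the full window of 300 bases, which adds 50 bases after the start, Pax1 has 13 CG pairs and Pax9 has 11. Of the 32851 promoter windows in the RefSeq table, 37.9% hold at least as many CG pairs as Pax1 and 41.4% at least as many as Pax9. The GC box GGGCGG, searched on both strands, occurs 1 time in the Pax1 window and not in that of Pax9, and 35.7% of all windows hold it. TATAAA, also searched on both strands, was found in neither window and in 13.6% of all windows. The arrays measure RNA and not the promoter, so these letters are background to the genes and not a result.

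A few facts of the whole series bear on the values. Brpf1 itself was brighter in Cy5, the channel labelled Brpf1-deficient, at a log2 ratio of Cy5 over Cy3 of 0.77 ± 0.17 (SD, n = 3 arrays). In the authors' deposited table the sign of Brpf1 is reversed, as it is for 95.2% of the probes listed there. The Cy5 excess goes against the label, although the place of its single probe relative to the deletion is not known here. For this reason each direction is stated by dye, and the genotype behind a dye is not settled. All 12 dorsal cortex markers were measured. In the fit over all genes, 2 of them were called towards Cy3 and 4 towards Cy5, beside 9.16% and 7.97% of all genes. Neurod6 was called towards Cy3 at -0.38 ± 0.23 (limma adjusted p = 0.0412) and Tbr1 towards Cy5 at 0.33 ± 0.21 (adjusted p = 0.0481). The Neurod6 and Tbr1 calls were lost under 4 and 5 of 13 alternatives. Lhx2, with the smallest adjusted p of the list, was called towards Cy5 at 0.44 ± 0.10 (limma adjusted p = 0.0131). Its call was kept under all 13. Emx2 (0.35 ± 0.14) and Bcl11b (0.39 ± 0.22) were also called towards Cy5, each lost under 3. Cux2 was called towards Cy3 at -0.27 ± 0.05, lost under 6. For 11 of the 12 markers, among them Tbr1 and Neurod6, the signal was well above background in both channels on all 3 arrays. The exception was Emx1, a dorsal forebrain homeobox gene, which was well above background in Cy5 on 2 arrays. Its log2 ratios were 0.65, -2.72 and -2.65, so array 1 stood apart for this gene. The precision of every value is limited by the number of arrays.

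Pax1 was seen in Cy3 and not in Cy5. Its probe is printed as 10 spots on each array, which allows the signal to be read 10 times within an array. In Cy3, the lowest, median and highest spot intensities were 264, 331 and 375 on array 1. They were 228, 240 and 316 on array 2, and 216, 229 and 297 on array 3. The median local background in Cy3 was 55, 43.25 and 48.5, so every Cy3 spot lay far above its surroundings. In Cy5, the median spot intensity was 141.5 on array 1, 126 on array 2 and 129.5 on array 3, against a median background of 150, 114.25 and 118.5. Of the 30 Cy5 spots, 19 were brighter than their own local background. On array 2 the brightest Cy5 spot, at 170, exceeded the highest Cy5 background around any spot of the probe, at 138. The scanner software marked all 30 Cy3 spots as well above background and 0 of the 30 Cy5 spots.

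**Figure D1:**
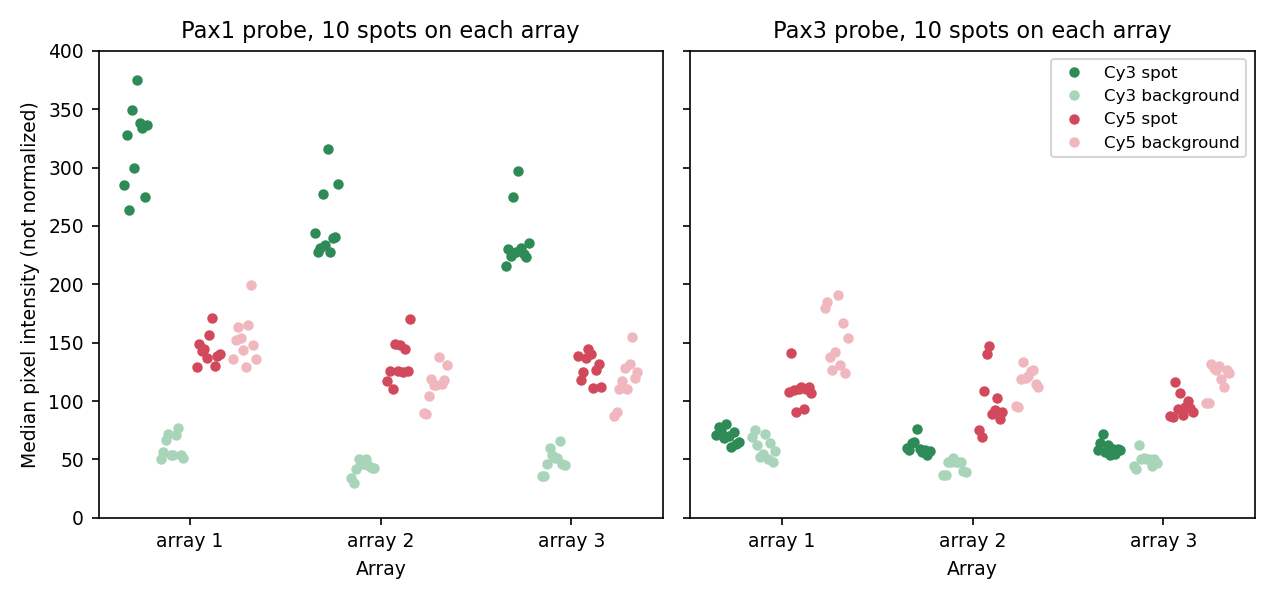
Median pixel intensity, not normalized, of each of the 10 spots of the Pax1 probe (left) and of the Pax3 probe printed 10 times (right), with the local background of each spot, by array and colour. For Pax1 the Cy3 spots lie between 216 and 375, above all Cy3 background values, while Cy5 spots overlap Cy5 background; for Pax3 no spot was well above background.

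After normalization, the log2 ratio of Pax1 was -1.77, -1.75 and -1.59 on arrays 1, 2 and 3. The 3 arrays lay close together and all were brighter in Cy3. They averaged -1.70 ± 0.10 (SD, n = 3 arrays), or 3.25-fold. Ratios of the single spots ran from -2.42 to -1.14, so no spot of any array reached 0. The SD over the 10 spots within an array was 0.24, 0.14 and 0.24. On normalized channel levels (log2), Pax1 averaged 8.46 ± 0.13 in Cy3 and 6.76 ± 0.03 in Cy5 (SD, n = 3 arrays). Cy5 signal never rose well above background, so the Cy5 level of Pax1 is uncertain. Cy5 was set to the higher of its own level and a floor, the lowest Cy5 level among probes well above background. With this floor, Cy3 was 3.19-fold brighter. The floor is no detection limit, as the brightest Pax2 probe, at a Cy5 level of 7.25 on array 1, was not well above background. The 3.19-fold value is therefore not a strict minimum, and it is open to dye bias.

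The size of the Pax1 difference depends on the constant added to the signals and on the scanner software's processing. A constant of 50, added to both channels to steady dim spots, pulls the ratio towards 0. With a constant of 16 the log2 ratio was -2.09, and with the scanner software's processed signals, to which no constant is added here, it was -3.88. With no background correction it was -1.75. The direction was the same under these and the other alternatives tried.

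Of the 23232 genes tested, 52 had a mean log2 ratio of -1 or below, Pax1 among them. Among all tested genes, 36 (0.155%) were at -1 or below on every array, and Pax1 is 1 of them. Signal well above background on all arrays in Cy3, and on none in Cy5, was seen for 170 of the tested genes (0.732%). Of the 399 probes printed as 10 spots, that of Pax1 was the 1 probe at or below -1. It passed the filter on dim probes only through Cy3, so a ratio below 0 was built into its place among the measured genes.

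Of the 15064 named genes compared, 3 came nearest to Pax1 in the log2 ratios of the 3 arrays, by Euclidean distance. They were the homeobox gene Hoxd4 (distance 0.23), with ratios of -1.60, -1.73 and -1.44, the homeobox gene Hmx1 (0.33), with -1.48, -1.76 and -1.44, and Twist1 (0.33), a factor of mesoderm, with -1.59, -1.62 and -1.34. Hoxd4 and Hmx1 had, like Pax1, Cy3 signal well above background throughout and no such Cy5 signal. They too passed the filter on dim probes only through Cy3, so a ratio below 0 was built into their place. Twist1 was well above background in both channels on all 3.

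Pax9, the relative of Pax1, gave ratios near 0, at signals close to background. Its probes gave 0.10, 0.24 and 0.02 for the brighter one and 0.14, 0.07 and 0.21 for the other. The means were 0.12 ± 0.11 and 0.14 ± 0.07 (SD, n = 3 arrays). In Cy3 the spots of Pax9 were at 66, 58 and 66 for the brighter probe, over backgrounds of 64, 40 and 45. Neither probe was well above background in any channel on any array, so these ratios compare background with background.

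**Figure D2:**
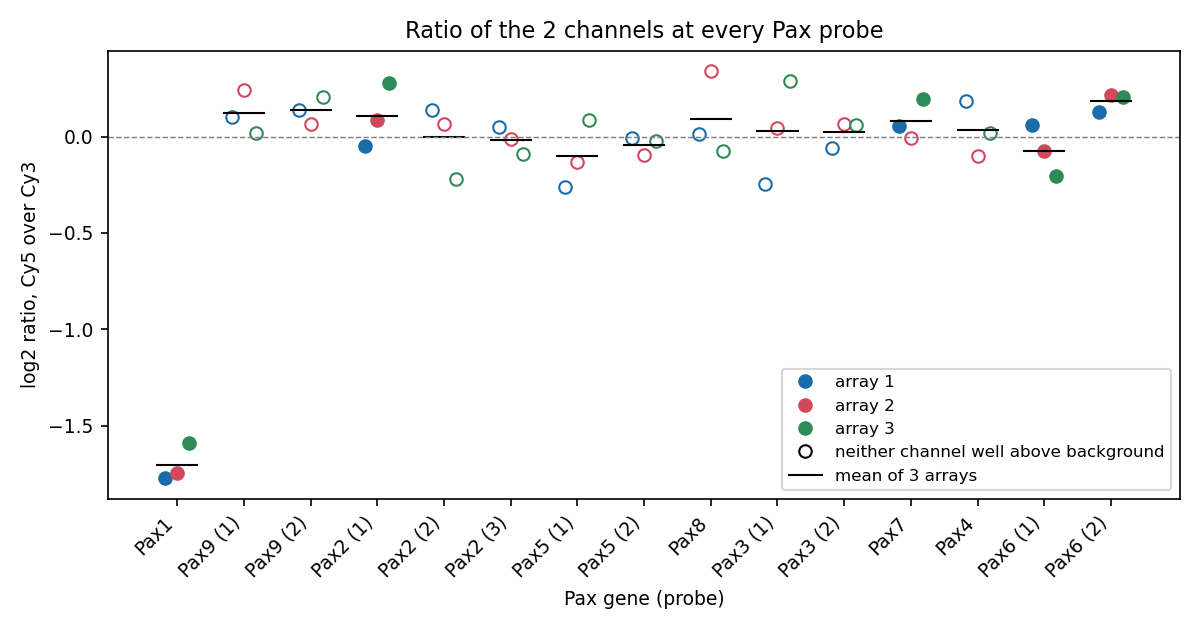
Log2 ratio of Cy5 over Cy3 at each of the 13 probes of the 8 Pax genes and the 2 probes of Pax6, grouped by subfamily, with 1 point per array; bars are means of 3 arrays and open points mark arrays on which neither channel was well above background. The Pax1 points lie between -1.77 and -1.59, and the means of the other 12 probes of the family lie between -0.10 and 0.14.

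In the subfamily of Pax2, Pax5 and Pax8, 1 of 6 probes was measured. Pax2, which specifies kidney, optic stalk and inhibitory neurons of the dorsal spinal cord, had signal well above background at its brightest probe, on 3 arrays for Cy3 and on 2 for Cy5. The Cy3 intensity of that probe was 121, 118 and 116, over a background of 55, 48 and 53. In Cy5 it was 188, 208 and 222, over 133, 110.5 and 112. The log2 ratio was -0.05, 0.09 and 0.28, so the arrays fell on both sides of 0. Its mean was 0.10 ± 0.16 (SD, n = 3 arrays). The other Pax2 probes had means of -0.0042 ± 0.19 and -0.02 ± 0.07 and were not well above background on any array.

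Pax5, a determinant of B cell identity, had 2 probes with means of -0.10 ± 0.17 and -0.04 ± 0.05 (SD, n = 3 arrays). Its brighter probe reached a Cy3 intensity of 103, 87 and 96.5, over a background of 64, 45 and 44, and was still not well above background. Pax8, a regulator of thyroid and kidney, had ratios of 0.01, 0.34 and -0.08, with a mean of 0.09 ± 0.22. Its Cy3 intensity of 82, 67 and 80.5 stood over a background of 75, 48 and 58. With the processed signals the Pax8 mean was 0.79 ± 0.37, and over 10 alternatives it ran from -0.05 to 0.79. None of the probes of Pax5 and Pax8 was well above background on any array.

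In the subfamily of Pax3 and Pax7, Pax7 was measured and Pax3 was not. Pax7, which maintains muscle stem cells and marks dorsal midbrain, was well above background in both channels on arrays 1 and 3, and in neither on array 2. Its Cy3 intensity was 153, 92.5 and 121, over backgrounds of 51, 47 and 48. Its Cy5 intensity was 265, 172 and 244, over 131, 136 and 128. The log2 ratio was 0.05, -0.0095 and 0.19, with a mean of 0.08 ± 0.10 (SD, n = 3 arrays). Array 2 was thus the dimmest for Pax7 in both colours, and Pax7 was not called over the 3 arrays.

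Pax3, a factor of neural crest and limb muscle precursors, has a probe printed 10 times, like that of Pax1, which gives the clearest view of a member at background. The median Cy3 spot was 70.75, 58.75 and 58.75 on the 3 arrays, over a median background of 59.5, 47.75 and 50. The median Cy5 spot was 110, 91.5 and 93.5, below its median background of 148, 119.25 and 125.25 on each array. None of the 30 spots was well above background in either colour. Spot ratios ran from -0.22 to 0.32, with 13 of 30 below 0. The mean ratio was 0.02 ± 0.07 for this probe and 0.03 ± 0.27 for the other Pax3 probe (SD, n = 3 arrays). That other probe swung from -0.24 on array 1 to 0.29 on array 3, where the probe read 10 times stayed at -0.06 and 0.06.

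Pax4, a repressor in the endocrine pancreas, had ratios of 0.18, -0.10 and 0.02, with a mean of 0.03 ± 0.14 (SD, n = 3 arrays). It was not well above background in any channel. Its relative Pax6 gives the contrast within the subfamily. Pax6 was well above background in both channels on all 3 arrays at both of its probes. The brighter Pax6 probe had a Cy3 intensity of 1308, 902 and 1041 and a Cy5 intensity of 2155, 1552 and 1520. Its log2 ratio was -0.07 ± 0.13 and that of the other Pax6 probe 0.18 ± 0.05, with no call in the limma fit (adjusted p = 0.517 for the reported probe over all genes, 0.131 for the other over all probes).

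**Figure D3:**
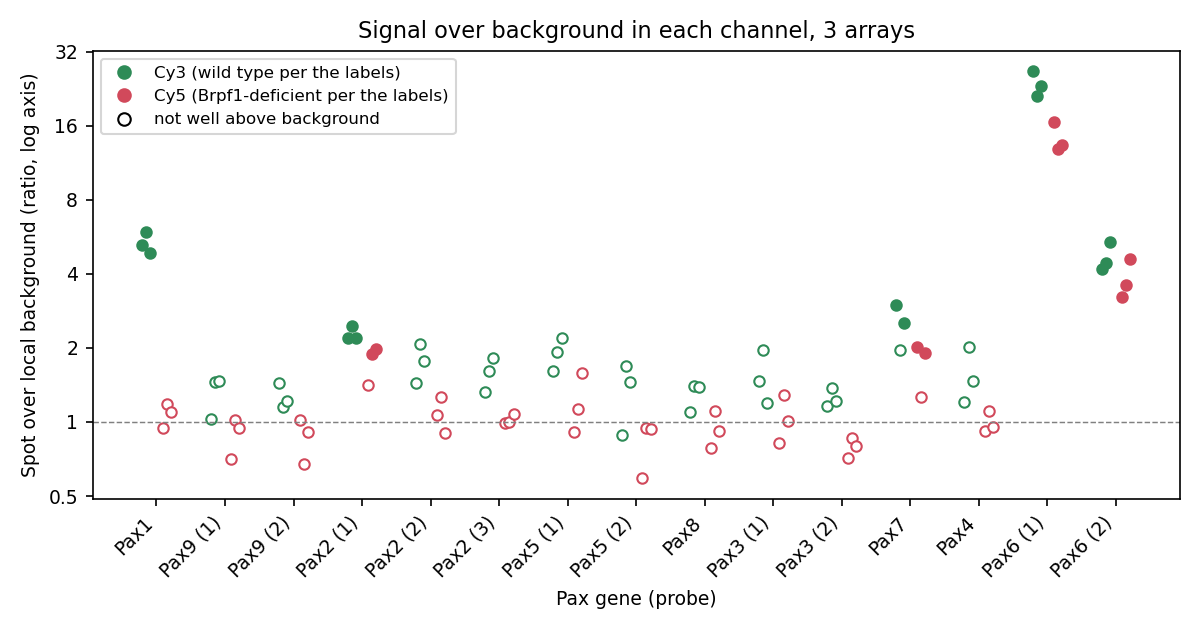
Spot intensity divided by local background (log axis) in Cy3 and Cy5 on each of the 3 arrays, for the 13 probes of the family and the 2 of Pax6; filled points were called well above background by the scanner software. Pax1 is filled in Cy3 and open in Cy5, Pax2 and Pax7 are partly filled in both colours, and Pax6 is filled throughout; heights of different probes are not comparable as RNA levels.

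Counting over the family, 10 of the 13 probes were not well above background in any channel on any array, against 35.7% of all non-control probes. The filter on dim probes left 3 of the 13 Pax probes, and 59.2% of all probes passed it. These stood for 3 of the 8 genes, namely Pax1, Pax2 and Pax7, beside 23232 of all 35468 genes. In the fit over 23232 genes, 17.1% of genes had a limma adjusted p below 0.05, 9.16% as brighter in Cy3 and 7.97% as brighter in Cy5. After loess 46.5% of the calls were brighter in Cy5, and with median centring in its place 83.4%. Of the 3 measured Pax genes, Pax1 was among the calls towards Cy3, and Pax2 and Pax7 were not called. In the fit over all 55681 probes without the filter, 11% were called, 6.1% towards Cy3 and 4.94% towards Cy5, and 1 of the 13 Pax probes, that of Pax1, was among them. The 12 other Pax probes, among them those of Pax2 and Pax7 that passed the filter, had means from -0.10 to 0.14. The median size of their log2 ratio was 0.06, against 0.11 for all probes and 0.08 for all probes that failed the filter.

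The genes that each Pax factor is known to act with were examined next. Of 142 distinct genes on these lists, 103 were measured, of which 6 were brighter in Cy3, 13 in Cy5 and 84 did not pass, beside 9.16% and 7.97% of all genes. Their median log2 ratio was 0.02, and that of all genes tested -0.0064. The lists were chosen with earlier results of these data known. Without array 3, 12 of these genes passed, and with the processed signals 10.

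In the programme of Pax1 and Pax9 in sclerotome, pharyngeal pouch and tooth, 12 of 17 genes were measured. In limma 0 were brighter in Cy3, 1 was brighter in Cy5 and 11 did not pass, beside 9.16% and 7.97% of all genes, and the median was 0.06. Of so few genes, these counts are near the shares over all genes. The gene that passed was Col2a1, a cartilage collagen, with ratios of 0.53, 0.70 and 0.57 and a mean of 0.60 ± 0.09 (SD, n = 3 arrays, adjusted p = 0.00565). The transcription factors Meox1 (0.12 ± 0.19), Tbx18 (-0.07 ± 0.22) and Foxc2 (-0.09 ± 0.16) gave values near 0. Nkx3-2, Meox2, Uncx, Foxn1 and Osr2 were not past the filter.

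**Figure D4:**
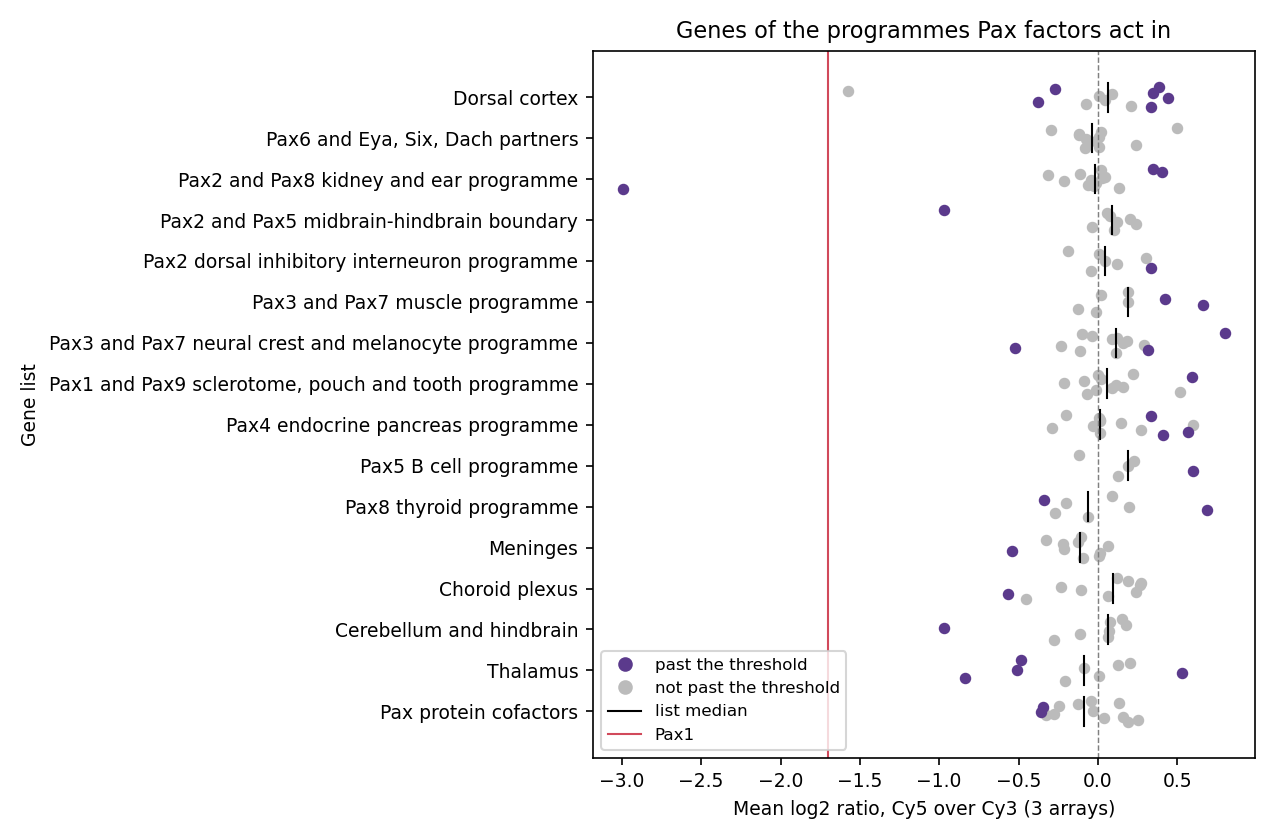
Mean log2 ratio of Cy5 over Cy3 over 3 arrays for each measured gene of the lists tied to Pax factors and of the tissue marker lists; dark points passed the threshold in the limma fit over all genes, black bars are list medians and the red line is Pax1 at -1.70. List medians lie between -0.12 and 0.19, and Wt1 at -2.99 is the lowest gene.

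Among the 14 measured genes of the kidney and ear programme of Pax2 and Pax8, 1 was brighter in Cy3 and 2 in Cy5. The shares to set beside each list here are 9.16% of all genes towards Cy3 and 7.97% towards Cy5. Of so few genes, the counts are not read as a result about a list. Wt1, a zinc-finger factor of kidney and gonad, had ratios of -3.23, -3.12 and -2.63 and a mean of -2.99 ± 0.32 (SD, n = 3 arrays, limma adjusted p = 5.25e-05). In Cy5, Wt1 rose well above background on 1 array, so it passed the filter on dim probes only through Cy3. Gdnf, a growth factor of the ureteric bud, had 0.40 ± 0.28 (adjusted p = 0.0447), and Emx2, shared by kidney and cortex, 0.35 ± 0.14 (adjusted p = 0.0311). The Gdnf and Emx2 calls were each lost under 3 of 13 alternatives, among them the fit without array 3 (adjusted p up to 0.113 and 0.121). In the midbrain-hindbrain list, 1 of 8 measured genes passed, towards Cy3. It was En2, an engrailed homeobox gene, with -0.97 ± 0.14 (limma adjusted p = 0.00124). Its Cy5 signal never rose well above background. With the floor used for Pax1, Cy3 was 1.90-fold brighter, which is not a strict minimum. Like Pax1, En2 passed the filter on dim probes only through Cy3, so a ratio below 0 was built into its place. In the list of dorsal inhibitory neurons, 1 of 7 passed, the vesicular GABA transporter gene Slc32a1 at 0.33 ± 0.21 (limma adjusted p = 0.0490), with a second probe at 0.50. That call was lost under 6 of 13 alternatives (adjusted p up to 0.142).

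For Pax3 and Pax7, the muscle list held 7 measured genes of 14, with 2 brighter in Cy5 and none in Cy3. Over all genes the shares were 7.97% and 9.16%. Myh3, an embryonic myosin heavy chain, had 0.66 ± 0.26 (SD, n = 3 arrays, limma adjusted p = 0.0123), and Mef2c, a factor of muscle that cortical neurons also use, had 0.43 ± 0.24 (adjusted p = 0.0325). The Myh3 call was lost with the processed signals (adjusted p = 0.0516), and the Mef2c call under 3 alternatives, among them the fits without array 2 or array 3 (adjusted p up to 0.0883). The muscle determination genes Myf5, Myod1, Myog and Myf6 were not past the filter. Of 13 measured neural crest and melanocyte genes, 1 was brighter in Cy3 and 2 in Cy5, beside 9.16% and 7.97% of all genes. Tfap2a, an AP-2 factor of neural crest, had -0.52 ± 0.17 (adjusted p = 0.0128), with a dim second probe at -0.18. Dct, a melanin enzyme, had 0.80 ± 0.21 (adjusted p = 0.00510) and a second probe at 0.58. Its Cy3 signal never rose well above background. Cy5 was 1.74-fold brighter, with or without such a floor set in Cy3, and this is not a strict minimum. Dct passed the filter on dim probes only through Cy5, so a ratio above 0 was built into its place. Tyr, encoding tyrosinase, had 0.32 ± 0.06 (adjusted p = 0.0269), with a dim second probe at 0.02, and its call was lost under 3 alternatives, among them the fits without array 2 or array 3 (adjusted p up to 0.0977).

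In the endocrine pancreas programme of Pax4, 3 of 13 measured genes passed, all towards Cy5. Among all genes, 7.97% were called towards Cy5, a share that also stands beside the B cell list below. They were Neurog3, a factor of endocrine precursors, at 0.57 ± 0.20 (SD, n = 3 arrays, limma adjusted p = 0.0126), Sst, encoding somatostatin, at 0.41 ± 0.09 (adjusted p = 0.0151), and Gcg, encoding glucagon, at 0.34 ± 0.06 (adjusted p = 0.0232). A second, dim Neurog3 probe had 0.00073. Sst also marks a class of cortical interneurons, and the calls of Sst and Gcg were lost without array 3 (adjusted p = 0.0705 and 0.112). Of the B cell genes of Pax5, 5 of 15 were measured, and Ebf1, a factor that striatal neurons also use, was brighter in Cy5 at 0.60 ± 0.24 (adjusted p = 0.0133). Its call was lost with the processed signals (adjusted p = 0.0634). The B cell genes Cd79a, Rag1 and Rag2 were not past the filter, like Pax5 itself.

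Of the thyroid genes of Pax8, 7 of 10 were measured, with 1 call each way, beside 9.16% of all genes towards Cy3 and 7.97% towards Cy5. Slc5a5, the iodide transporter, had 0.69 ± 0.19 (SD, n = 3 arrays, limma adjusted p = 0.00728). Duoxa2, a maturation factor of a thyroid oxidase, had -0.34 ± 0.17 (adjusted p = 0.0384), lost under 4 alternatives, among them the fits without array 1 or array 3 (adjusted p up to 0.0918). Among the Eya, Dach and sine oculis homeobox genes, which with Pax factors form a shared network, 12 genes including Pax6 were measured and none passed in limma. The largest values were Dach1 at 0.50 ± 0.49 (adjusted p = 0.0750) and Dach2 at -0.29 ± 0.25 (adjusted p = 0.0839). Of 14 genes for cofactors of Pax proteins, 2 passed, both towards Cy3, beside 9.16% of all genes. Paxbp1, encoding a protein that binds Pax3 and Pax7, had -0.36 ± 0.14 (adjusted p = 0.0297), with a second probe at -0.31. Kmt2d, a histone methyltransferase, had -0.34 ± 0.12 (adjusted p = 0.0292), with dim probes at -0.19 and 0.16. In Cy5, Kmt2d rose well above background on 1 array, so it passed the filter on dim probes only through Cy3. The Paxbp1 call was lost under 4 alternatives, among them without array 1 or array 3 (adjusted p up to 0.113), and the Kmt2d call without array 1 or array 2 (adjusted p up to 0.0675).

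Markers of tissue that a cortical dissection could carry were set beside Pax1. Among all genes, 9.16% were called towards Cy3 and 7.97% towards Cy5. Of so few genes, the counts below are not read as a result about a list. Of 10 meningeal genes, all measured, 1 was brighter in Cy3, Foxd1 at -0.54 ± 0.22 (SD, n = 3 arrays, limma adjusted p = 0.0147), and none in Cy5. The summed meningeal level was 85338 to 90759 in Cy3 and 78969 to 85178 in Cy5, which did not overlap, by a small margin. In such a sum the brightest probes weigh most, so it describes the list and is no measure of tissue. Of 8 measured cerebellum and hindbrain genes, En2 alone passed, towards Cy3, and the summed level was 16994 to 21667 in Cy3 and 18141 to 20428 in Cy5. Among 9 thalamus genes 4 passed, 3 towards Cy3 and 1 towards Cy5. The thalamic sum was 43548 to 49943 in Cy3 and 31188 to 32165 in Cy5, without overlap. The glutamate transporter gene Slc17a6 had -0.83 ± 0.12 (limma adjusted p = 0.00191). Ntng1 had -0.51 ± 0.07 (limma adjusted p = 0.00850), with other probes at -0.42 and -0.58. Calb2 had -0.48 ± 0.29 (limma adjusted p = 0.0308), a call lost under 2 of 13 alternatives. Prkcd, a protein kinase C gene, went the other way at 0.53 ± 0.08 (limma adjusted p = 0.00763), with a second probe at 0.43. Of 10 choroid plexus genes, 1 was brighter in Cy3, the prolactin receptor gene Prlr at -0.57 ± 0.38 (adjusted p = 0.0337), with a second probe at -0.03. The Prlr call was lost under 3 of 13 alternatives (adjusted p up to 0.0826), and the summed choroid level ran widely, from 19270 to 69873 in Cy3 and from 5694 to 74864 in Cy5. Sums without overlap were not particular to tissue markers. Those of the muscle and endocrine pancreas lists were higher in Cy5, and that of the cofactor list was higher in Cy3, also without overlap. How often such ranges separate over all genes was not tested. The part of these tissues in the Pax1 ratio was not tested.

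Position was examined because several Pax genes lie beside homeobox and forkhead genes of the same embryonic tissues. Of the 48 nearest named protein-coding genes, 3 on each side of each Pax gene in RefSeq order, 39 were measured. Of these, 5 were brighter in Cy3, 4 in Cy5 and 30 did not pass, beside 9.16% and 7.97% of all genes, and their median was -0.0016. The Pax1 neighbours Nkx2-2 and Nkx2-4, homeobox genes of the ventral neural tube and hypothalamus, were measured and gave 0.01 ± 0.17 and 0.07 ± 0.18 (SD, n = 3 arrays). Foxa2, on the other side of Pax1, was not past the filter. Xrn2, an exoribonuclease gene, was brighter in Cy3 like Pax1, at -0.35 ± 0.09 (limma adjusted p = 0.0232), a call lost under 3 of 13 alternatives, among them without array 3 (adjusted p up to 0.303). The means of the 5 measured Pax1 neighbours ran from -0.35 to 0.33.

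**Figure D5:**
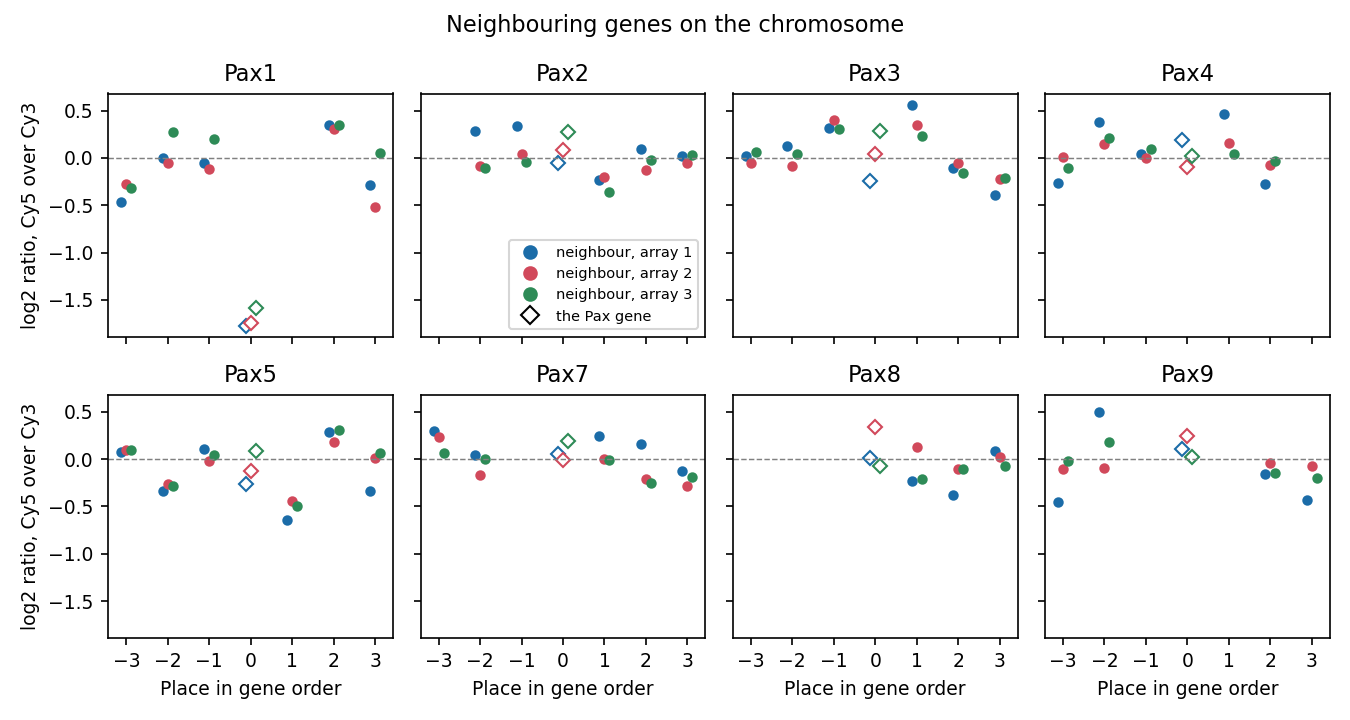
Log2 ratio of Cy5 over Cy3 on each of 3 arrays for the measured neighbours of each Pax gene, by place in the gene order (0 is the Pax gene, drawn as diamonds, from its brightest probe). At Pax1 the diamonds lie between -1.77 and -1.59 while the means of its 5 measured neighbours lie between -0.35 and 0.33.

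The neighbours with the smallest adjusted p were Zcchc7 next to Pax5, a zinc-knuckle gene, at -0.53 ± 0.10 (SD, n = 3 arrays, limma adjusted p = 0.00856), the ephrin receptor gene Epha4 next to Pax3 at 0.34 ± 0.05 (adjusted p = 0.0215), and Sstr4, a somatostatin receptor gene, beside Pax1 at 0.33 ± 0.03 (adjusted p = 0.0225). The Epha4 call was lost under 3 alternatives, among them without array 2 or array 3 (adjusted p up to 0.0718), and the Sstr4 call without array 3 (adjusted p = 0.0966). The number of neighbours past the threshold was 4 without array 2, 2 without array 3 and 4 with the processed signals.

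The authors' deposited table lists 9 of the 13 Pax probes. In it Pax1 has a log2 fold change of 4.14, number 13 from the highest of 40000 rows, with an adjusted p of 0.229, and no row of the table has an adjusted p under 0.05. Its sign is opposite to the ratio given here for 8 of the 9 Pax probes, with Pax4 the exception. This holds for the table as a whole: 95.2% of its 39890 listed non-control probes, and 99.9% of those past the filter on dim probes, have the opposite sign, and Brpf1 has -0.80 there. Turned to the direction used here, its Pax1 value would lie towards Cy3, as the ratio does. In the authors' deposited table the second largest Pax value is that of a Pax9 probe, with a log2 fold change of -1.08 as listed, towards Cy5 once turned, a p-value of 0.0347 and an adjusted p of 0.265. The same probe gave 0.14 ± 0.07 (SD, n = 3 arrays) here. Its Cy3 spots were at 69, 50.5 and 59 over backgrounds of 48, 44 and 48.5, not well above background on any array.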

How the data were processed

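Per the file headers, the deposited intensity values are median pixel signals of each spot and its local background from Agilent Feature Extraction 10.7.3.1, not normalized, with the grid on mm9 and 1 scan for the 3 arrays. The deposited log10 ratio and processed intensity are, per the file headers, corrected by the scanner software. Flags, an other kind of value per the file headers, mark spots well above background. The authors' deposited table, made with limma per the submitters' processing notes, gives log2 fold changes, a t score and p-values. The sources used here do not give its normalization or direction.

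Here, intensities were corrected with normexp (offset 50) and loess in limma 3.58.1 under R 4.3.3. Spots flagged as non-uniform were dropped (4 to 6 per array). A probe counted as well above background where most of its spots did, and was kept if this held in 1 channel on at least 2 arrays. The brightest probe stood for a gene. Log2 ratios of Cy5 over Cy3 were tested against 0 with Benjamini-Hochberg adjustment at 0.05, checked on simulated data. Of 55681 probes, 27656 were named by RefSeq accession (GRCm38.p6), 4082 through the authors' table and 23943 kept a systematic name. Fold values with a floor and summed levels use channel levels after Aquantile scaling. Named list genes and neighbours are those past the threshold, up to 3 per list by adjusted p; others are given for context and were chosen after their values were seen. The members and lists were chosen with earlier results of these data known.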

Additional observations from a re-analysis of the deposited data

How the results depend on the processing

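The Pax1 log2 ratio ran from -3.88 to -1.67 over 13 alternatives. It passed the filter only through Cy3 and was chosen from these ratios, so this range is no support for a difference. The ratios of Pax2, Pax5 and Pax7 kept their sign and those of Pax3, Pax4, Pax8 and Pax9 changed sign under 1 to 4 of 10 alternatives, none of them past the threshold. The count of genes called moved from 3981 to 1105 with the processed signals, and was 1860 to 3801 leaving out 1 array each. List genes moved from 19 to 10 with the processed signals and were 12 to 27 leaving out 1 array; neighbours moved from 9 to 4 and were 2 to 6. The cause of these moves was not tested. Leaving out the spots marked as population outliers was chosen after seeing the data. Signal over background limits 10 of the 13 Pax probes, whose ratios carry no measured difference.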
